A study of Homo sapiens with 4 samples.

Results

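The long arm of chromosome 6, called 6q below, is described here by its listed open-chromatin regions. Accessible DNA was tagged with the Tn5 transposase and sequenced (ATAC-seq) in T47D-MTVL cells, which come from the luminal breast cancer line T47D and have a stably integrated luciferase reporter under the MMTV promoter. An shRNA against multiple histone H1 variants was expressed in 2 samples (multiH1sh, the knock-down) and a random shRNA in the other 2 (RDsh, the control), and the labels do not say whether samples 1 and 2 of a group were separate cultures. The comparison addressed whether loss of linker histone H1 changes DNA accessibility. A single list of peaks is given beside the 4 samples, and which of them went into it is not stated. Its track line names 225sh and RDsh, and taking 225sh as the multiH1 knock-down with RDsh as its reference is an assumption. The listed enrichments were taken over 1 background of 2.01 reads where it could be solved. They are thus no ratio to RDsh at each place. The list has no values of single samples, so no spread between replicates and no test of knock-down against control can be given. The 6q members were chosen by position, as the lines of the list on chromosome 6 whose summit (the point of highest signal) lies at or beyond 63900000 in hg19, without the stretch around the estrogen receptor gene ESR1 from 152000000 to 152430000. The arm itself was chosen by its low number of listed summits, so that number is a description and not a finding. In all, 1440 of the 371521 listed summits were members, in 1073 of the 197823 distinct regions.

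Linker histones bind the DNA that enters and leaves the nucleosome and help to pack chromatin. Open stretches usually mark promoters and enhancers, and large gene-poor domains with few of them are known to be packed against the nuclear lamina and to replicate late. The long arm of chromosome 6 alternates between such gene deserts, long neuronal genes and smaller clusters of widely used genes, and its far end is known to be richer in genes. Gene names below are background knowledge of where genes lie in hg19, taken to the window or empty stretch only and matched to no annotation of that build, and no value is given to a gene. In the RefSeq gene table of GRCh38.p14, another build, all 87 landmark genes used as background were found on this arm, and the 86 pairs of neighbours stood in the assumed order. No sequence is printed, because no genome of the list's build was used here.

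The members lay over 106.6 Mb, or 13.5 summits per Mb, and together covered 311.4 kb, or 0.292% of that length. The short arm of the same chromosome, 6p, had 119 summits per Mb, which is 8.83 times the density of 6q. Of the other sparse stretches of the list, 4q (the long arm of chromosome 4) had a density of 8.21 per Mb, 9p (the short arm of chromosome 9) one of 16.2 and chromosome 18 one of 20.8, each taken without the 2 Mb beside its centromere gap, the stretch without listed regions around the centromere. These densities are values of the kind by which the arm was chosen, and nothing is read from their order. The cut at 63900000 fell in a thinly listed stretch. The nearest summits outside it were at 63874190 (17 reads, fold enrichment 5.98) and 63111023 (10 reads, fold 3.66), and the nearest inside it were at 63938762 (10 reads, fold 3.66) and 64104941 (16 reads, fold 5.65).

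Genes were counted by their order in the RefSeq table between flanking genes, without use of coordinates. Beyond KHDRBS2 the long arm of chromosome 6 holds 437 protein-coding genes without ESR1, against 610 on 6p up to PRIM2. This amounts to 3.30 listed summits per gene on 6q and 11.1 on 6p. With each region counted once the values were 2.46 regions per gene on 6q and 7.37 on 6p. For the long arm of chromosome 4 the table gave 521 genes and 2.15 summits per gene, and for chromosome 18 it gave 270 genes and 5.46 summits per gene, with the genes beside the centromere included and the summits there left out. Since 6q was chosen by its low number of summits, the numerator of these ratios was fixed by that choice, and they are given as a description only.

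The 1 Mb windows of 6q were mostly sparse and became dense toward the end of the arm. Of the 107 windows with at least 50% of their length in the arm, 13 had no summit, 53 had 1 to 9, 24 had 10 to 19, 11 had 20 to 49 and 6 had 50 or more. Per window the median was 6 summits and the mean 13.4. The 17 windows with at least 20 summits held 61.01% of the summits in windows. Of the 94 windows with a summit, 80 had fewer than 25, the median over the 2738 windows of the whole list that had any. The densest 6q window had 159 summits, a number that 540 windows of the whole list exceeded.

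**Figure D1:**
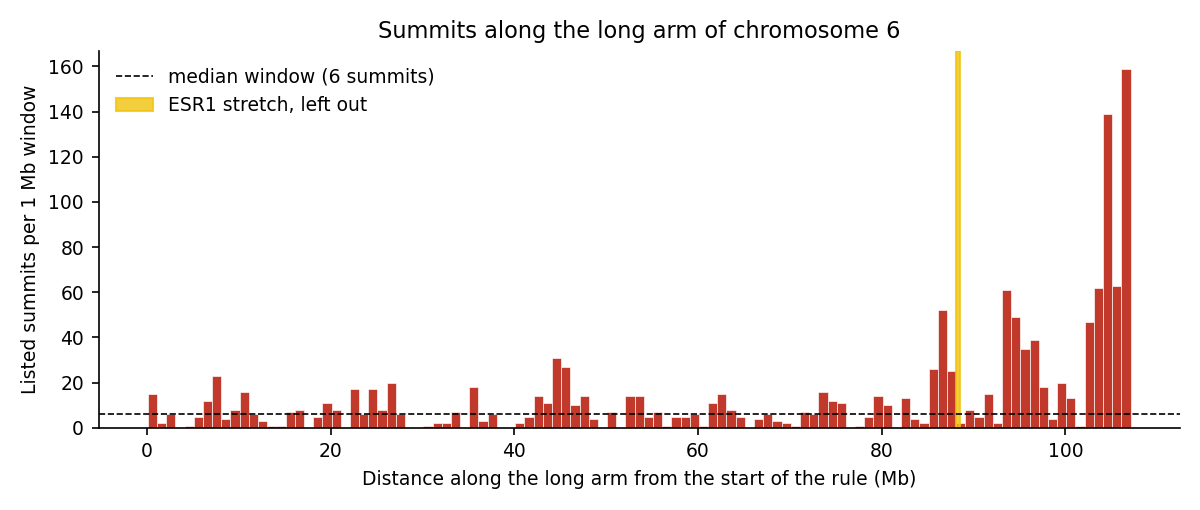
Listed summits in each 1 Mb window of 6q (bars) against the distance in Mb from the start of the rule, with the median window as a dashed line and the ESR1 stretch in yellow. Most bars stand below 20 summits, and the tallest, with 159 and 139 summits, stand near the end of the arm.

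In stretches of 10 Mb the density stayed between 4.92 and 9.90 summits per Mb from the start of the rule to 150 Mb. The lowest value was that of the first, shorter stretch of 6.1 Mb with 30 summits, and the highest was that from 100 to 110 Mb with 99 summits. From 150 to 160 Mb the density was 26.5 per Mb, with 254 summits. From 160 Mb to the last listed region, which ends at 170894016, it was 51.9 per Mb, with 565 summits or 39.2% of all members. The last 5 Mb had 94.0 summits per Mb (470 summits), against 9.55 in the rest of the arm (970 summits), a ratio of 9.84. For the last 2 Mb the ratio was 9.89 (229 summits) and for the last 10 Mb it was 5.61 (529 summits).

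The window with the most summits was that from 170 to 171 Mb, with 159 summits in 121 regions and up to 77 reads at a summit. It is known to hold DLL1, a ligand of Notch receptors, PSMB1, a proteasome subunit, and TBP, the TATA-binding protein. The window from 168 to 169 Mb, with AFDN, which encodes the junction protein afadin, and SMOC2, a matricellular protein, had 139 summits in 115 regions with up to 43 reads. Between them the window from 169 to 170 Mb, with the thrombospondin gene THBS2, had 63 summits in 55 regions. All 3 are the final windows of the arm, and the next in order, from 167 to 168 Mb with the chemokine receptor gene CCR6, had 62 summits in 53 regions.

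A second dense stretch began abruptly. The window from 156 to 157 Mb had 2 summits, whereas that from 157 to 158 Mb, which is known to hold most of ARID1B, a subunit of the BAF chromatin remodelling complex, had 61 summits in 36 regions with up to 242 reads. The following windows had 49 summits (158 to 159 Mb, with the sorting nexin gene SNX9), 35 (159 to 160 Mb, with EZR, which encodes the membrane-to-actin linker ezrin) and 39 (160 to 161 Mb, with SOD2, the mitochondrial superoxide dismutase, and IGF2R, the receptor of insulin-like growth factor 2). The count then dropped to 18 from 161 to 162 Mb, with the stress kinase gene MAP3K4. The window from 165 to 166 Mb, with PDE10A, a phosphodiesterase of the brain, had 1 summit, and that from 166 to 167 Mb, with the S6 kinase gene RPS6KA2, had 47.

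Before 157 Mb only 1 window, from 150 to 151 Mb, had 50 summits or more (52 summits in 42 regions). It is known to hold PPP1R14C, a phosphatase inhibitor gene, and its neighbours had 26 (149 to 150 Mb, with TAB2, an adaptor of the kinase TAK1) and 25 (151 to 152 Mb, with the kinase A anchor AKAP12). In the sparse remainder the highest counts were 31 from 108 to 109 Mb, where the forkhead factor gene FOXO3 begins, and 27 from 109 to 110 Mb, with SESN1, a stress-induced sestrin, and the sialomucin gene CD164. Next came 23 from 71 to 72 Mb, and 20 from 90 to 91 Mb, with BACH2, a repressor in lymphocytes, and from 163 to 164 Mb, with the RNA-binding protein gene QKI. MYB, which is known as an estrogen-responsive transcription factor gene in luminal cells, lies in a window of 7 summits (135 to 136 Mb), close to the arm's median of 6. SGK1, a steroid-induced kinase gene, lies in a window of 1 (134 to 135 Mb).

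At a finer scale 2 windows of 100 kb stood out. The one from 170400001 to 170500000 had 59 summits and the one from 168400001 to 168500000 had 44, whereas the next had 22 (150200001 to 150300000 and 168700001 to 168800000). Of the 8 densest such windows 1 lay in the sparse remainder, from 109700001 to 109800000, with 19 summits.

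Long empty stretches separated the sparse windows. Stretches of at least 1 Mb without a listed region numbered 19 and added up to 29.97 Mb, or 28.1% of the arm, and 18 of them began before 150 Mb. The longest ran from 91321214 to 94129350 (2.81 Mb), between the known positions of MAP3K7, the kinase TAK1, and the start of EPHA7, an ephrin receptor. It was followed by 101841626 to 104465590 (2.62 Mb), which is known to contain GRIK2, a kainate receptor subunit, and 139696748 to 141715055 (2.02 Mb), beyond CITED2, a coactivator that binds CBP and p300. The next 2 were 66852742 to 68629900 (1.78 Mb), between the long retinal gene EYS and the brain receptor gene ADGRB3, and 114664120 to 116381294 (1.72 Mb), between the histone deacetylase gene HDAC2 and the start of the kinase gene FRK. Per 10 Mb of length there were 1.78 stretches of at least 1 Mb on 6q, 1.83 on 4q, 1.77 on 9p and 1.41 on chromosome 18, against 0.353 on 6p. These stretches made up 28.1% of the length of 6q, 29.1% of 4q and 26.7% of 9p, against 3.77% of 6p. The list holds no summit under 10 reads, so an empty stretch had no summit of that height and is not shown to be closed.

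Within the arm the summits were unevenly spread. The densest 10% of its windows (11 windows) held 51.2% of the summits in windows (95% Wilson interval 48.6 to 53.8%, counting error only, since summits of 1 region are not independent). The same share was 60.3% on 9p (56.7 to 63.8%), 55.9% on chromosome 18 (53.4 to 58.5%), 39.7% on 4q (36.8 to 42.6%) and 47.02% on 6p (45.8 to 48.2%). The arm thus stood between 9p and 4q, the other sparse arms. No window was empty on 6p, whereas 12.1% were on 6q (7.24 to 19.7%), 11.8% on 4q (7.37 to 18.3%), 8.89% on 9p (3.51 to 20.7%) and 7 of 70 on chromosome 18 (4.93 to 19.2%), and the intervals of all 4 sparse stretches overlapped.

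**Figure D2:**
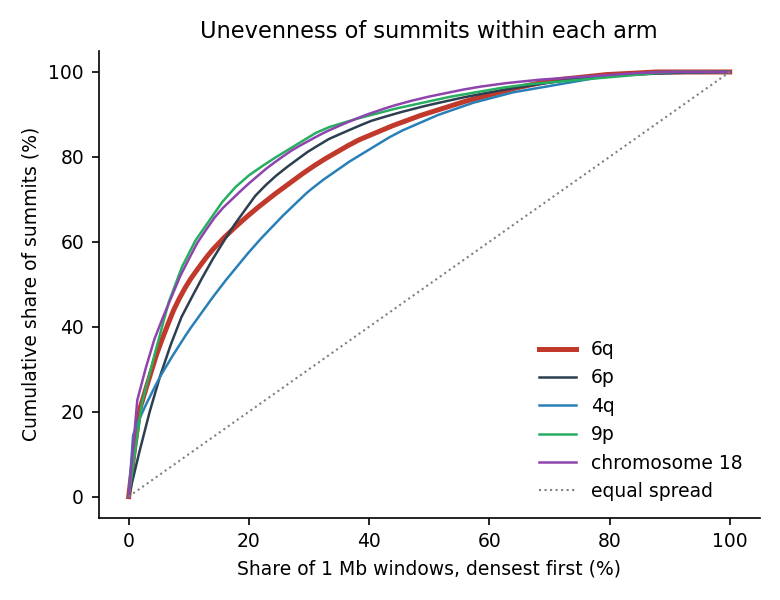
Cumulative share of summits in percent against the share of 1 Mb windows in percent, with the densest windows first, for 6q, 6p, 4q, 9p and chromosome 18. The densest 10% of windows hold 51.2% of the summits on 6q, and at that point its curve lies above those of 6p and 4q and below those of 9p and chromosome 18.

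The height of the summits was not used to choose them. Fold and significance values of single peaks are those of the authors. The fold is taken over 1 background of 2.01 reads, which was the same within 5.03e-06 reads in the 370182 of 371521 summits where it could be solved, so that a fold gives the number of reads over the summit (the pileup) and not a ratio to the control cells at that place. The 6q summits had a median fold of 5.32, or 15 reads, with a 25th percentile of 4.32 and a 75th percentile of 6.65. The median of the whole list was also 5.32, with percentiles of 4.65 and 6.98. Of the members, 168 (11.7%) had 10 reads, the lowest number listed, against 8.36% of the whole list. Summits of 20 reads or more were 334 of 1440, or 23.2% (95% Wilson interval 21.1 to 25.4%), against 26.5% of the whole list. On 4q this share was 31.2% (28.5 to 33.96%), on 9p 19.4% (16.7 to 22.4%), on chromosome 18 19.1% (17.2 to 21.2%) and on 6p 16.9% (16.03 to 17.8%). Within windows of like density it was not lower on 6q than in the rest of the list. In 1 Mb windows of 1 to 19 summits it was 27.3% on 6q and 22.7% in the rest. In windows of 20 to under 200 it was 20.6% and 20.2%. Windows of 200 or more, which 6q lacked, had 28.3%. When a region was counted 1 time, by its highest summit, the share over all windows was 20.9% on 6q (18.6 to 23.4%) and 21.9% in the whole list. The intervals thus give no difference from the list on that count. Over all windows the intervals of 6q and 6p did not overlap in either way of counting. Within windows of 1 to 19 summits and within those of 20 to under 200 they did overlap. For regions in the latter the shares were 16.9% on 6q (14.3 to 19.9%) and 16.1% on 6p (14.3 to 18.2%). No test of the difference between the arms was made, since the list has no replicates.

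Along the arm the height had no steady trend. In stretches of 10 Mb the share of summits with 20 reads or more ran from 18.9% (15.9 to 22.4%), beyond 160 Mb, to 42.5% (32.3 to 53.4%), from 80 to 90 Mb. From 80 to 90 Mb 34 of 80 summits had 20 reads or more, of which 11 lay in the window from 86 to 87 Mb, with NT5E, the ecto-nucleotidase CD73. The intervals of the other 9 stretches all included the 26.5% of the whole list. The densest stretch of the arm, beyond 160 Mb, had the lowest share of high summits. Its interval overlapped that from 100 to 110 Mb, with 19.2% (12.6 to 28.0%). The 26.5% includes windows of 200 summits or more, which the arm lacked and where the rest of the list had 28.3%. In windows of 20 to under 200 the rest had 20.2%, within the interval of 15.9 to 22.4%. In those of 1 to 19 it had 22.7%, just above that interval. The last stretch is thus not shown to be low for its density.

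Regions in sparse windows of 6q were higher than those in its denser windows. In windows of 1 to 19 summits 110 of 397 regions had 20 reads or more at their highest summit, or 27.7% (95% Wilson interval 23.5 to 32.3%), against 114 of 675, or 16.9% (14.3 to 19.9%), in windows of 20 or more. Counted by summits, the shares were 27.3% (23.8 to 31.1%) and 20.6% (18.07 to 23.4%). The short arm of chromosome 9 had shares of regions close to these, with 29.4% (22.4 to 37.6%) in its sparse windows and 15.2% (12.04 to 19.003%) in windows of 20 or more. On 4q they were 28.3% (24.8 to 32.2%) and 31.25% (25.1 to 38.1%), on 6p 21.9% (13.5 to 33.4%) and 16.7% (15.6 to 17.8%), and on chromosome 18 16.7% (12.4 to 22.1%) and 15.2% (12.98 to 17.6%), in each case with overlapping intervals. In the rest of the list, at the densities that occur on 6q, regions of 20 reads or more made up 20.4% (19.4 to 21.4%) in windows of 1 to 19 summits and 15.4% (15.1 to 15.7%) in windows of 20 to under 200. In its windows of 200 summits or more, a density that 6q did not reach, the share was 24.5% (24.3 to 24.8%). At both densities the share was higher on 6q, but the intervals for the denser windows overlapped. The split at 20 summits was made after the windows had been seen, and its difference was not tested.

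**Figure D3:**
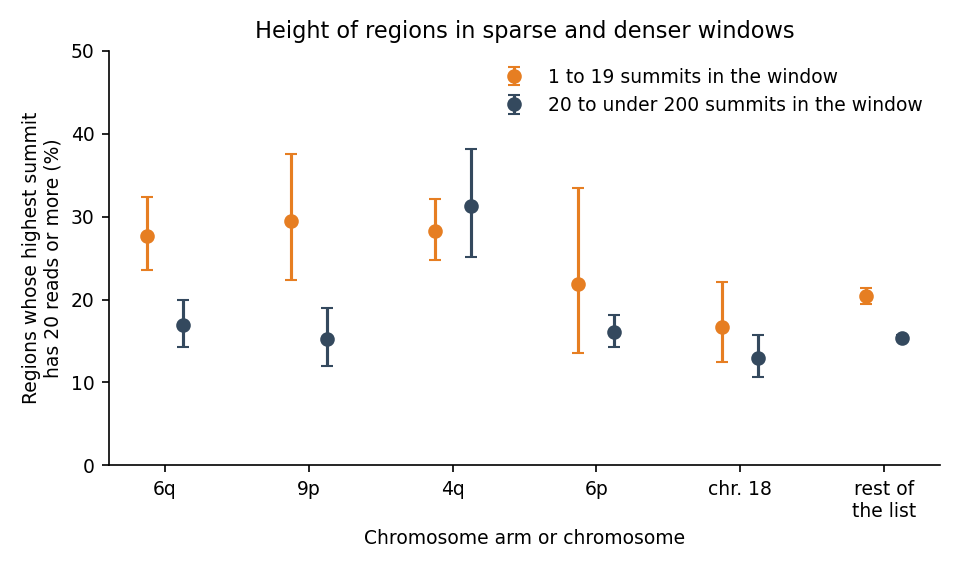
Share of regions whose highest summit has 20 reads or more, in percent with 95% Wilson intervals, in 1 Mb windows of 1 to 19 summits (orange) and of 20 to under 200 summits (dark blue), for 6q, 9p, 4q, 6p, chromosome 18 and the rest of the list. On 6q the values are 27.7% and 16.9%, and their intervals do not overlap.

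The regions of 6q were narrow, with a median width of 187 bp against 208 bp in the whole list, and 35 of them (3.26%) were at least 1000 bp wide, against 6.07% of the list. Most had a single summit. Regions with 2 or more summits were 215 of 1073, or 20.04% (95% Wilson interval 17.8 to 22.5%), against 28.2% of the whole list. This share was 17.6% on 9p (14.7 to 21.07%), 16.1% on chromosome 18 (14.1 to 18.3%), 23.9% on 4q (21.01 to 27.1%) and 22.4% on 6p (21.2 to 23.7%). Within windows of like density the share was not lower on 6q than in the rest of the list. In windows of 1 to 19 summits 23.7% of the 6q regions had 2 or more summits (19.8 to 28.1%), against 16.7% in the rest of the list (15.8 to 17.6%). In such windows it was 28.1% on 6p (18.6 to 40.1%), 21.8% on 4q (18.6 to 25.4%) and 19.1% on 9p (13.4 to 26.5%). Chromosome 18 had 13.7% (9.79 to 18.7%). In windows of 20 to under 200 the share was 17.9% on 6q (15.2 to 20.998%) and 17.7% in the rest of the list (17.4 to 18.05%), whereas the windows of 200 or more, which 6q lacked, had 32.9% (32.7 to 33.2%). These differences were not tested. Within a region neighbouring summits of 6q lay a median of 155 bp apart (25th percentile 114.5, 75th percentile 216.5, 367 pairs), close to the 156 bp of the rest of the list. Regions with 4 or more summits numbered 35, or 3.26%, against 9.66% of the whole list. This share was 6.21% on 4q, 5.69% on 6p, 3.68% on 9p and 2.99% on chromosome 18. The 35 regions had a median width of 885 bp and a median of 26 reads at the highest summit, against 160 bp and 13 reads in the 858 regions with 1 summit. Part of this contrast follows from the selection. More summits need more width, and the highest of several summits is set against a single one. Regions lay a median of 2.51 kb from their nearest neighbour, and 429 (39.98%) had one within 1 kb, whereas 100 (9.32%) had none within 100 kb. Of the 35 regions with 4 or more summits 7 had none within 100 kb, against 72 of the 858 with 1 summit.

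**Figure D4:**
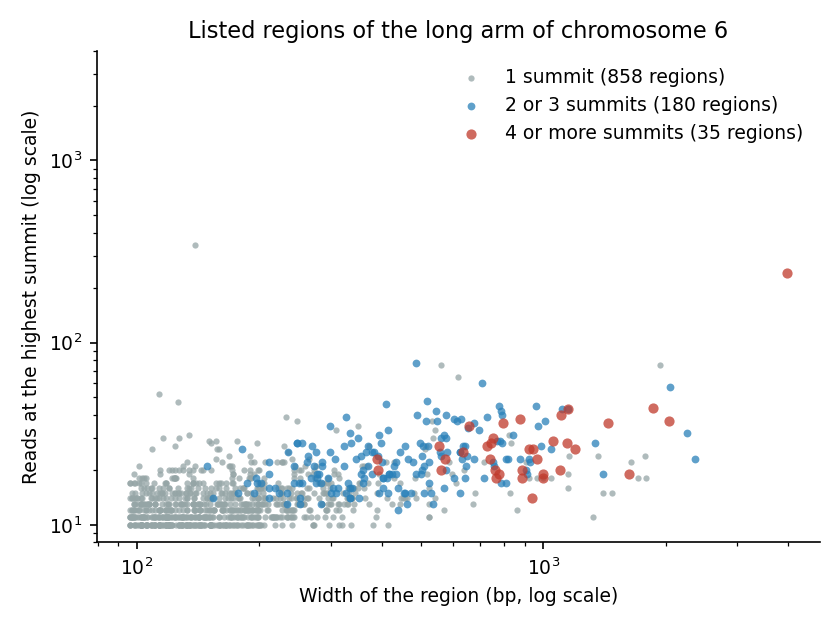
Width of each of the 1073 listed regions of 6q in bp against the reads at its highest summit, both on log axes, coloured by the number of summits in the region. The region at the upper right, 3979 bp wide with 242 reads, stands apart, as does the narrow region of 139 bp with 345 reads.

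The widest region stood apart from all others of the arm. It ran from 157731408 to 157735386 (3979 bp), distal to the window's landmark ARID1B, and had 13 summits of 109 to 242 reads, with folds from 36.6 to 80.8. Along the region the reads were 109, 145, 176, 175, 183, 158, 163, 141, 165, 226, 234, 242 and 214. No summit of it was thus near the list's minimum, and the last 4 were the highest. Neighbouring summits in it lay a median of 279.5 bp apart. It held 13 of the 14 summits of 6q with 100 reads or more, and 13 of the 23 with 50 reads or more. Those 23 were 1.60% of the members and lay in 9 regions, against 1.44% of the whole list. The other summit above 100 reads was the highest of the arm, at 119558631, with 345 reads and a fold of 115, in a region only 139 bp wide (119558561 to 119558699) that had no other region within 111.9 kb. No listed region was filtered here by how uniquely reads align to it. Whether these high pileups reflect open DNA was not tested.

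The other strong regions were far lower. After these came 170461207 to 170461692 with 77 reads, 89657042 to 89657600 with 75 reads (its nearest neighbour 132.6 kb away), 107380040 to 107381976 with 75 reads in 1 summit over 1937 bp, and 151689938 to 151690554 with 65 reads, in the window of AKAP12. In the ARID1B window a second region, from 157468332 to 157469037, had 60 reads. Next were 170528544 to 170530598 with 57 reads, 133594002 to 133594114 with 52 reads, in the window of the coactivator gene EYA4, and 166995246 to 166995762 with 48 reads, in that of RPS6KA2. These regions were spread over sparse and dense windows alike.

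Regions with many summits lay in sparse and denser windows. Of those with 4 or more summits, 17 lay in windows of 1 to 19 summits, or 4.28% of the regions there (2.69 to 6.75%). Windows of 20 or more held 18, or 2.67% (1.69 to 4.18%). The region from 86351891 to 86353926 (2036 bp) had 9 summits of 16, 14, 29, 20, 37, 26, 25, 37 and 11 reads, and thus more than 1 high point. It held 9 of the 17 summits of its window. The region from 163834948 to 163836392 (1445 bp), in the window of QKI, had 8 summits of 13, 13, 28, 13, 36, 12, 15 and 16 reads, so that 2 of them stood above the others. The region from 74229896 to 74230992 (1097 bp), in the window of EEF1A1, a translation elongation factor gene used by every cell, had 7 summits of 10, 20, 17, 13, 20, 20 and 19 reads. Its summits thus ran from 10 to 20 reads, and it lay 107.4 kb from its nearest neighbour. The region from 64282726 to 64283725 (1000 bp), in the window of the phosphatase gene PTP4A1, had 6 summits of 13, 15, 18, 19, 13 and 15 reads, and 2 more regions had 6 summits, from 155054307 to 155055449 and, in the MAP3K4 window, from 161412401 to 161413285. Of the 5 widest regions the other 3 lay in the last windows of the arm, from 169713977 to 169716342 (2366 bp, 2 summits), 168779186 to 168781441 (2256 bp, 3 summits) and 170528544 to 170530598 (2055 bp, 3 summits), with fewer summits for their width than the region from 86351891.

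The left-out ESR1 stretch of 0.43 Mb had 4 summits, at 152085202, 152126771, 152128840 and 152129474, with 14, 10, 14 and 15 reads. Their regions were 98, 97, 241 and 96 bp wide. The stretch was thus sparsely listed too, at 9.30 summits per Mb, a value that rests on 4 summits. The rest of 6q had 13.5 per Mb, and 9.55 per Mb without its last 5 Mb. The gene is known to be expressed in T47D cells, and its level was not measured here.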

How the data were processed

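The labels give 2 knock-down and 2 control ATAC-seq samples of 75000 harvested cells each. The submitters' processing notes name Bowtie 1.1.2, MACS2 and hg19, with MACS2 options, duplicate handling, pooling and read totals not given. The deposited fold is the ratio of summit signal to background. The authors gave the p-value and the q-value of each summit as −log10. The deposited score is 10 times −log10 p and was not used further.

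Each line is a summit, and lines with the same start and end are 1 region, whose height is its highest summit. Reads were recovered from fold and p as (reads + 1) / (background + 1) with a Poisson tail, which solved 1435 of 1440 members (fold under 100) at a background of 2.01, and the fold gave the rest. All members came out within 1.87e-05 of a whole number of reads. The solver was tested on simulated data (400 lines, 100% recovered). Arms compared exclude 2 Mb beside the centromere gap, and windows lie on whole Mb. Wilson intervals (95%) cover counting error only, since neither summits nor PCR reads that carry no molecular identifiers are independent. Positions count from 1. Members, lists and splits were chosen with earlier results of these data known. Named were the 10 densest windows of 1 Mb, the 10 regions with the highest summits (the 10 highest summits themselves lay in 2 regions), the 5 widest regions, the 5 with the most summits, the 5 longest empty stretches and landmark genes; other windows were chosen after their values were seen. No differential test was possible without values per sample. Python 3.11.15, numpy 2.4.6, scipy 1.17.1, pandas 2.3.3 and matplotlib 3.10.9 were used.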

Additional observations from a re-analysis of the deposited data

How the results depend on the processing

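Of 66 alternatives 48 stayed within 1.5 times the reported value or, for a share, within its interval, and 18 did not; 11 were chosen after the data were seen. Above the list's median fold 6q had 616 summits (5.78 per Mb), 25.2% of windows empty and 46.9% of summits in the densest 10% of windows. At 20 reads or more it had 334 summits (3.13 per Mb), 33.6% of windows empty and 47.01% in the densest windows. These counts fall by construction. Empty windows made up 24.9% at 500 kb and 3.77% at 2 Mb, and the densest 10% held 46.3% at 2 Mb, 54.01% with each region counted once and 47.3% in windows wholly in the arm, which leaves out the last. The share of 20 reads or more (23.2%) was 20.9% with each region counted once, 20.9% with regions within 100 bp merged and, as a share of 30 reads or more, 6.39%. The end of the arm stayed denser than the rest, with a ratio of 5.61 for the last 10 Mb. Of regions of 15 reads or more 58.6% had 1 summit, against 79.96% of all. The ratio of 6p to 6q stayed between 6.43 and 8.91. Without the widest region the share of 20 reads or more was 22.5%. Where construction does not give it, the cause was not tested. No paired analysis was possible because samples have no values of their own in the list, and no replicate could be omitted either. Summits under 10 reads are not listed, which limits what low counts show.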

Other observations

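On the centromere side of the rule's start, from the first listed region beyond the gap at 61897348 to 63900000, 6q had 13 summits in 2.00 Mb, or 6.49 per Mb, with a median fold of 9.31 against 5.32 among the members.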
